A study of Mus musculus with 6 samples.

Results

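The interferon-inducible GTPases described here are 10 listed mouse genes of the guanylate-binding protein (GBP) and immunity-related GTPase (IRG) families: GBP1, GBP2, GBP3, GBP4, GBP6, IGTP, IIGP1, IIGP2, IRGM and IFI47. A probe was counted as a member when the array table gave it a listed symbol, in any case. This found 13 probes of 7 of the 10 genes, among 45281 probes with 31490 symbols. GBP3, IIGP1 and IIGP2 had no probe under these symbols. A probe was tested when it was detected, at a detection p-value under 0.05 against the negative-control beads, on at least 3 of the 6 arrays. This left 9 member probes of 6 genes among 20855 probes with 15133 symbols.

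Interferons bind receptors on the cell surface and act through STAT and IRF transcription factors, which switch on GBP and IRG genes together with antiviral effectors. IRG proteins fall into regulators on internal membranes, such as IRGM, IGTP and IIGP2, and effectors, such as IIGP1 and IFI47, which gather on the vacuoles of invading microbes. GBP proteins coat such vacuoles and bacteria in the cytosol and help to break them open, and cultured Sertoli cells are known to answer viruses and interferons with antiviral proteins.

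The arrays measured RNA of primary Sertoli cells, the somatic cells of the seminiferous tubule that nourish germ cells, from C57BL/6J mice aged 3 weeks. The tubules of the animals were pooled, and all cells in both groups carried the floxed allele Ctnnb1(tm1Mmt/tm1Mmt), whose recombination gives a stabilised CTNNB1 protein. For 24 h in medium without serum, the cells were exposed either to an adenovirus with Cre (Ad-Cre, 3 RNA samples) or to an adenovirus with eGFP (Ad-eGFP, 3 RNA samples). Preliminary tests of the study set the multiplicity of infection at 50, and each RNA sample had its own Illumina mouse BeadChip array. The comparison asks how RNA levels differed between cells with and without recombination of Ctnnb1. Ad-Cre on cells without the floxed allele, and cells without virus, were not analysed here, so effects of Cre, of the virus stock and of the recombined allele cannot be told apart. Whether the 3 samples of a group came from separate cultures is not stated, and p-values measure only the spread between these samples.

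The arrays were alike in depth. The median raw signal was 134, 129 and 137 on Ad-Cre arrays 1 to 3 and 134, 131 and 132 on Ad-eGFP arrays 1 to 3. Detected probes numbered 20672, 20901 and 20461 with Ad-Cre and 20687, 20288 and 20746 with Ad-eGFP. Levels are given as log2 of the background-corrected, quantile-normalised intensity, and every difference is Ad-Cre minus Ad-eGFP. The number of arrays limits the precision of each value. A probe was called at an adjusted p under 0.05 in limma, two-sided and adjusted over all 20855 tested probes. Over all tested probes, Ad-Cre array 3 correlated with arrays 1 and 2 of its group at 0.992 and 0.993, and every other pair within a group at 0.996. Without Ad-Cre 3, 5669 probes were called in place of 4774, the 6 testable member genes were still called higher, and their median log2 difference was 1.02.

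The labels were checked on the transgene. Probes of Ctnnb1 and Sertoli cell markers are described beside it, and no label was read from them. The EGFP probe was at 13.18, 13.14 and 12.72 on the Ad-Cre arrays and at 14.99, 15.01 and 14.79 on the Ad-eGFP arrays. It was thus higher on each Ad-eGFP array, and it was detected with Ad-Cre too. Its log2 difference was -1.91 (SE 0.14, adjusted p = 3.68e-04). Probe 3060497 of CTNNB1 differed by 0.30 (adjusted p = 0.0254) and probe 5870370 by 0.22 (adjusted p = 0.211). The probe under the older symbol CATNB differed by -0.39 (adjusted p = 0.0187), so these probes did not move one way. The call of CTNNB1 probe 3060497 was lost with median scaling (adjusted p = 0.0533), without Ad-Cre 2 (0.0532) and without Ad-eGFP 1 (0.0697), 2 (0.0900) or 3 (0.0896), and with the replicate block (0.0531). The call of CATNB was lost without Ad-eGFP 1 (adjusted p = 0.0588), 2 (0.0718) or 3 (0.0561). All 15 listed Sertoli cell markers, SOX9, WT1, CLDN11 and AMH among them, had a tested probe.

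With Ad-Cre, the 6 member genes that could be tested were higher. By the brightest tested probe of each gene, 6 of 6 were called higher and none lower. Of all tested probes, 22.9% were called in either direction, 10.7% higher and 12.2% lower with Ad-Cre. Among member probes, 9 of 9 tested were called higher, and on each of them the lowest Ad-Cre value exceeded the highest Ad-eGFP value, which held for 20.4% of all tested probes. IFI47 and probe 6860600 of GBP2 were detected with Ad-Cre alone, so they passed the filter only through the group where they were high, and they had to differ. The other 5 genes were detected on all 6 arrays. The median log2 difference over the 6 genes was 1.04, with a range from 0.64 for IRGM to 2.17 for GBP4. It was 0.94 with IFI47 at its bound and 1.08 over the 5 genes detected on all arrays, beside 0.000642 over all tested probes. These figures describe the tested genes and leave out the 4 members without a tested probe. With 3 arrays a group, the smallest p of an exact permutation test (two-sided) is 0.1, which each tested member probe reached. In bulk RNA, a different number of cells of a type and a different amount of RNA per cell cannot be told apart.

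**Figure D1:**
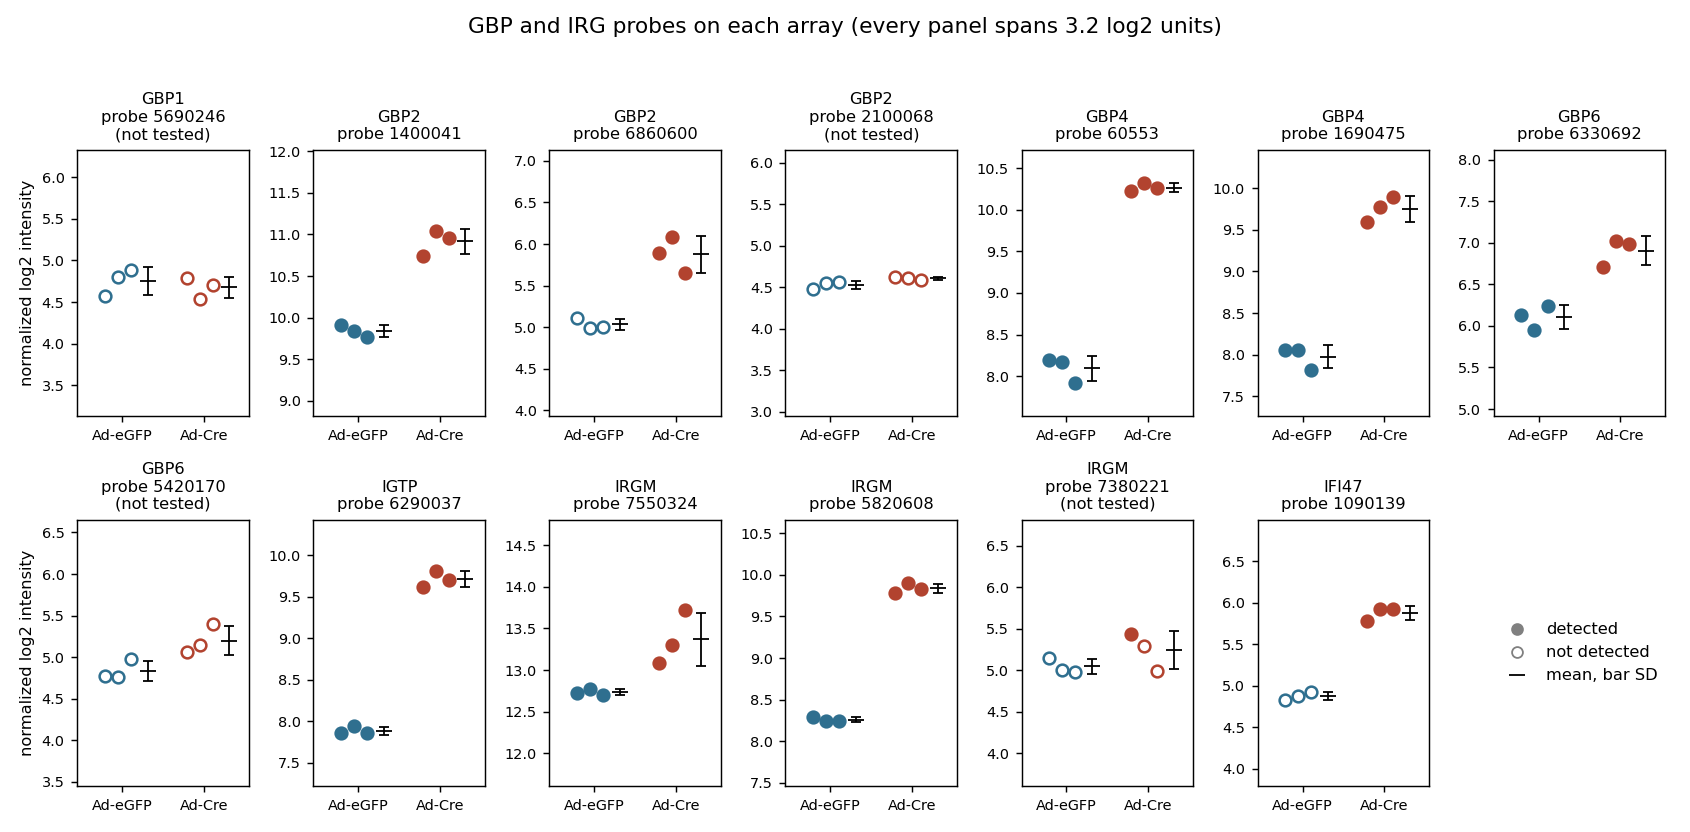
Log2 intensity of the 13 member probes on the 6 arrays (3 with Ad-Cre, 3 with Ad-eGFP), with a panel for each probe. Filled points were detected at a p under 0.05, open points were not, lines give the mean and bars 1 SD, and on each of the 9 tested probes the Ad-Cre points lie above the Ad-eGFP points.

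Among the IRG regulators, IGTP rose 3.54-fold. IGTP, a protein of the endoplasmic reticulum that keeps effector GTPases inactive on the cell's own membranes, had 1 probe, 6290037, detected on all 6 arrays. Its level was 9.62, 9.81 and 9.70 on the Ad-Cre arrays and 7.87, 7.94 and 7.86 on the Ad-eGFP arrays. The groups did not overlap, and the gap between them was far wider than the range within either. The means were 9.71 ± 0.09 and 7.89 ± 0.05 (SD, n = 3 each), a log2 difference of 1.82 (SE 0.08, limma adjusted p = 5.59e-05). The untransformed raw signal showed the same order, with 900, 993 and 961 for Ad-Cre and 344, 332 and 316 for Ad-eGFP. With a larger offset in the background correction, which damps differences of dim probes, the log2 difference of IGTP was 1.18.

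IRGM, called Irgm1 today, is a regulator that also takes part in autophagy, and it had 3 probes. Probe 7550324 was detected on all 6 arrays, at 13.09, 13.31 and 13.72 with Ad-Cre and at 12.73, 12.78 and 12.70 with Ad-eGFP. The Ad-Cre arrays were spread more widely, from array 1, the closest to the Ad-eGFP arrays, to array 3, the highest. The means were 13.37 ± 0.32 and 12.73 ± 0.04 (SD, n = 3 each), a log2 difference of 0.64 (SE 0.15, 1.55-fold, limma adjusted p = 0.0253). This call was the least firm of the member probes. It was lost without Ad-Cre 2 (adjusted p = 0.0615), without Ad-eGFP 1 (0.0689), 2 (0.0620) or 3 (0.0796), and in the methods' t-test after Benjamini-Hochberg adjustment (0.104). That test was run in its plain form, without the EB (Wright and Simon) algorithm that the methods also name. The methods name no such adjustment. At the methods' own thresholds, an unadjusted p under 0.05 and at least 1.5-fold, this IRGM probe passed. By fitted folds, so did each of the 9 tested member probes, beside 3.77% of all tested probes that passed as higher. IFI47 and GBP2 probe 6860600 had to differ, and their bound of 1.36-fold lies below 1.5-fold, so their pass is not settled.

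Probe 5820608 of IRGM was also detected on all 6 arrays, at 9.79, 9.90 and 9.83 with Ad-Cre and at 8.29, 8.24 and 8.25 with Ad-eGFP. Here both groups were narrow and well apart. The log2 difference was 1.58 (SE 0.07, 2.99-fold, limma adjusted p = 6.24e-05), and every setting tried kept it past the threshold, with a highest adjusted p of 0.00355. Probe 7380221 was detected on Ad-Cre array 1 alone and was not tested, and its groups overlapped. The 3 probes of IRGM therefore did not give the same size of change, and the difference between probes was not tested.

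IIGP2, a regulator on the Golgi apparatus called Irgm2 today, had no probe under its own symbol. RefSeq lists AI481100 as an older symbol of Irgm2, and the array carried 1 probe of that name, which was added after its values were seen and is not counted among the members. It was detected on all 6 arrays, at 10.45, 10.62 and 10.58 with Ad-Cre and at 9.35, 9.38 and 9.35 with Ad-eGFP. The groups did not overlap. The log2 difference was 1.19 (SE 0.08, 2.28-fold, limma adjusted p = 2.54e-04).

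Among the IRG effectors, IFI47 was detected with Ad-Cre alone. IFI47 is a cytosolic GTPase that is loaded onto parasite vacuoles, and its probe 1090139 was detected on 3 of 3 Ad-Cre arrays and 0 of 3 Ad-eGFP arrays. The measured levels were 5.78, 5.93 and 5.93 with Ad-Cre and 4.83, 4.88 and 4.92 with Ad-eGFP. Since the probe was not detected above background in the lower group, only a bound is given. It sets the Ad-Cre mean against the mean over Ad-eGFP arrays of the lowest signal among detected probes. IFI47 was at least 1.36-fold higher, with measured means of 5.88 and 4.88 and a limma adjusted p of 4.18e-04. Its fitted log2 difference was 1.00 and shrank to 0.15 with the larger offset. IIGP1, an effector that acts on the vacuole of Toxoplasma, had no probe under its symbol. The array carried 3 probes under older symbols of IIGP1, looked up after the values were seen, and none was detected on any array. A probe under IIGP-PENDING, a symbol that RefSeq does not list, was detected on no array either.

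Among the GBP genes, GBP4 had the largest change of the 5 member genes detected on all arrays. Guanylate-binding proteins are large GTPases that assemble on membranes once they bind GTP. GBP4 probe 60553 was detected on all 6 arrays, at 10.22, 10.32 and 10.26 with Ad-Cre and at 8.19, 8.17 and 7.92 with Ad-eGFP. The groups were far apart, and Ad-eGFP array 3 was the lowest. The means were 10.27 ± 0.05 and 8.09 ± 0.15 (SD, n = 3 each), a log2 difference of 2.17 (SE 0.09, 4.51-fold, limma adjusted p = 5.59e-05). The raw signal of this GBP4 probe was 1321, 1379 and 1382 with Ad-Cre and 407, 372 and 326 with Ad-eGFP. GBP4 probe 1690475 was detected on all 6 arrays too, at 9.59, 9.77 and 9.90 against 8.05, 8.06 and 7.82. Its groups were again apart, with a log2 difference of 1.78 (SE 0.11, 3.43-fold, adjusted p = 2.31e-04). With the larger offset, the log2 differences of these GBP4 probes were 1.16 for 1690475 and 1.52 for 60553. RefSeq gives GBP4 both as the symbol of today's Gbp4 and as an older name of Gbp3, so which of these genes the GBP4 probes measured is not settled here. A probe under MPA2, an older symbol of today's Gbp4 looked up after the values were seen, was detected on no array.

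GBP2, a guanylate-binding protein that is strongly induced by interferon gamma, had 3 probes. Probe 1400041 was detected on all 6 arrays, at 10.75, 11.05 and 10.96 with Ad-Cre and at 9.91, 9.84 and 9.76 with Ad-eGFP. The groups did not overlap, and Ad-Cre array 1 was the lowest of its group. The means were 10.92 ± 0.15 and 9.84 ± 0.07 (SD, n = 3 each), a log2 difference of 1.08 (SE 0.10, 2.11-fold, limma adjusted p = 7.06e-04). Probe 6860600 was detected on 3 of 3 Ad-Cre and 0 of 3 Ad-eGFP arrays and was at least 1.36-fold higher, with measured means of 5.88 and 5.03 and an adjusted p of 0.00357. Its fitted log2 difference of 0.84 was 0.13 with the larger offset. Probe 2100068 of GBP2 was detected on no array and was not tested.

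GBP6 had a smaller change than GBP4. Probe 6330692 of GBP6 was detected on all 6 arrays, at 6.71, 7.02 and 6.99 with Ad-Cre and at 6.13, 5.96 and 6.24 with Ad-eGFP. The groups did not overlap, and Ad-Cre array 1 and Ad-eGFP array 3 came closest. The log2 difference was 0.80 (SE 0.12, 1.74-fold, adjusted p = 0.00412), and it was 0.22 with the larger offset. Probe 5420170 of GBP6 was detected on no array, and so was a probe under AI595338, an older symbol of GBP6 looked up after the values were seen. GBP1, called Gbp2b today, had 1 probe, 5690246, detected on no array, and its values lay between 4.54 and 4.89 in overlapping groups. GBP3 had no probe under its symbol.

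The order of the changes was described by ranking the log2 differences of all 20855 tested probes from the highest. GBP4 stood at ranks 18 and 42, IGTP at 37, and IRGM at 61 and 690. GBP2 probe 1400041 stood at rank 178 and GBP6 at 395. IFI47 and GBP2 probe 6860600, which have only a bound, were given no rank. IGTP and GBP4 probe 1690475, neighbours among the member probes in this order, differed by less than either standard error. With both tested probes of a gene averaged, the log2 difference was 1.97 for GBP4 and 1.11 for IRGM, each called.

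The lowest Pearson r of a member gene with the mean member profile, which holds each gene, was 0.905. The profile includes IFI47, which was undetected on all Ad-eGFP arrays. Each tested member was higher on every Ad-Cre array, so r over both groups largely restates that difference. Between pairs of members r ran from 0.866, for GBP4 and IRGM, to 0.997, for GBP4 and IGTP. After removal of group means it ran from -0.26, for GBP4 and GBP6, to 0.80. This describes 6 arrays that share 2 groups, and no p is given. Of 15127 genes outside the list, 744 had an r above 0.95 with that profile and 910 an r at least as far from 0 on the negative side. The 5 highest were AI481100 at 0.999, HERPUD1, FST and ISG20L1 at 0.998, and TOR3A at 0.997. HERPUD1, a protein of the endoplasmic reticulum, differed by a log2 of 0.56, and FST, the activin-binding protein follistatin, by 2.07. ISG20L1, an exonuclease, differed by 0.86 and TOR3A, an ATPase of the torsin family, by 1.28.

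Of 12 related GTPases, fixed as a list, 7 had a probe and 2 could be tested. GVIN1, a very large GTPase, was detected on 3 of 3 Ad-Cre and 0 of 3 Ad-eGFP arrays. It was at 6.14, 6.12 and 6.50 with Ad-Cre and at 4.80, 4.82 and 4.63 with Ad-eGFP. GVIN1 was at least 1.76-fold higher, with measured means of 6.25 and 4.75 and an adjusted p of 4.69e-04, and it too passed the filter only through the group where it was high. IRGQ, a relative of the IRG family that lacks GTPase activity, was called lower by its brightest probe, listed as AF322649, with a log2 difference of -0.31 (SE 0.07, adjusted p = 0.0235). Its other tested probes were not called, at -0.28 (adjusted p = 0.154) and -0.13 (adjusted p = 0.334). The call of IRGQ was lost without Ad-Cre 1 (adjusted p = 0.0631), without Ad-eGFP 1 (0.0793), 2 (0.0576) or 3 (0.0949), with median scaling (0.0546) and with the replicate block (0.0576). The median of this list was 0.60, and 0.25 with GVIN1 at its bound. GBP5, GBP8, GBP11 and TGTP were detected on no array, and IRGC1 on 1.

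Upstream of the GTPases, no listed interferon RNA was detected. Of 9 listed ligands, 8 had a probe, IFNB1 and IFNG among them, and none of these was detected on any of the 6 arrays, so no ligand could be tested. Of 9 receptors and kinases, 8 were tested, with 0 called higher, 2 called lower and a median of 0.01. A share of 2 in 8 is close to the 22.9% of all tested probes called in either direction, so it is no result about receptors. IFNAR1, a chain of the type I interferon receptor, had 1 probe, which was detected on no array, so absence of its RNA is not shown. IFNAR2, its partner chain, differed by -0.13 (adjusted p = 0.442). For the interferon gamma receptor, IFNGR1 differed by -0.04 (adjusted p = 0.823) and IFNGR2 by 0.17 (adjusted p = 0.632). The direction of neither was settled, since IFNGR1 was at 0.08 without Ad-Cre 2, and IFNGR2 at -0.08 without Ad-Cre 3 and 0.40 without Ad-Cre 1. A dimmer probe of IFNGR2, 580682, singled out after its values were seen, was called at 0.45 (adjusted p = 0.0375), and at 0.28 with the larger offset. That call of IFNGR2 was lost without Ad-Cre 1 (adjusted p = 0.0998) or 2 (0.113), without Ad-eGFP 1 (0.0690), 2 (0.0981) or 3 (0.122), with no filter (0.0638) and in the methods' t-test (0.115).

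By their brightest probes, the called genes of this list were IL28RA and TYK2. IL28RA, a chain of the interferon lambda receptor, fell by a log2 of 0.54 (a difference of -0.54, SE 0.13, adjusted p = 0.0264). Its call was lost without Ad-eGFP 1 (adjusted p = 0.0718), 2 (0.0548) or 3 (0.0931) and in the methods' t-test (0.0986). Its other tested probe, 4070044, named after its values were seen, was also called, at -0.44 (adjusted p = 0.0225), and was at -0.15 with the larger offset. That call of IL28RA was lost without Ad-Cre 2 (adjusted p = 0.0566), without Ad-eGFP 2 (0.0779) or 3 (0.0839) and in the methods' t-test (0.0733). TYK2, a kinase of the type I receptor, had a log2 difference of -0.33 (SE 0.07, adjusted p = 0.0165) on its brightest probe. Its other tested probes were not called, at -0.44 (adjusted p = 0.149) and -0.21 (adjusted p = 0.590). The call of TYK2 was lost without Ad-Cre 2 (adjusted p = 0.0502) and without Ad-eGFP 1 (0.0615) or 3 (0.0745).

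Among 9 interferon transcription factors, 6 were tested, with 3 called higher, 1 lower and 2 not called, beside 10.7% and 12.2% of all tested probes, and a median of 0.63. This median lies in a gap, between the called rises of 1.04 or more and the other genes at 0.22 or less, so that a single gene more or less would shift it. IRF9, the DNA-binding subunit of the ISGF3 complex, was at 10.36, 10.34 and 10.26 with Ad-Cre and at 9.34, 9.33 and 9.17 with Ad-eGFP, which did not overlap. Its log2 difference was 1.04 (SE 0.08, adjusted p = 4.26e-04). STAT2, another subunit of that complex, rose by 1.09 (SE 0.09, adjusted p = 5.65e-04). IRF7, a master regulator of interferon alpha genes, was at 7.11, 6.91 and 6.63 with Ad-Cre and was detected on 0 of 3 Ad-eGFP arrays. IRF7 was at least 2.73-fold higher, with measured means of 6.88 and 4.74 and an adjusted p of 1.78e-04, and it passed the filter only through the group where it was high.

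IRF1, a factor that acts on GBP promoters, was called lower by its brightest probe, at -0.24 (SE 0.07, adjusted p = 0.0437), and its other 3 tested probes were not called. The call of IRF1 was lost without Ad-Cre 1 (adjusted p = 0.0810) or 2 (0.123) and without Ad-eGFP 1 (0.135), 2 (0.137) or 3 (0.110). It was also lost with median scaling (adjusted p = 0.170), with no filter (0.0689) and with the replicate block (0.0881).

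Among 7 feedback inhibitors of the pathway, 6 were tested, with 2 called higher, beside 10.7% of all tested probes, none lower and a median of 0.05. With so few genes that count says little about the list, and its median was near 0. USP18, a protease that removes ISG15 and restrains the type I receptor, was at 10.67, 10.92 and 10.75 with Ad-Cre and at 7.33, 7.57 and 7.31 with Ad-eGFP. Its groups were far apart, with a log2 difference of 3.37 (SE 0.10, 10.4-fold, adjusted p = 1.45e-05). PTPN2, a phosphatase of STAT proteins, rose by 0.51 (SE 0.08, adjusted p = 0.00544). PIAS1, named after its values were seen, was not called, at -0.20 (adjusted p = 0.135). PIAS1 was called lower with the larger offset (adjusted p = 0.0485), with array weights (0.0435) and without Ad-Cre 3 (0.0491).

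Among 14 antiviral effectors, 10 were tested, with 10 called higher, beside 10.7% of all tested probes, none lower and a median of 1.50. Of these, 2 were detected with Ad-Cre alone and had to differ, and the median was 1.42 with those genes at their bounds. The other 4 listed effectors, IFIT1, OAS1A, MX1 and IFI44, were detected on no array. RSAD2, an enzyme that blocks the growth of many viruses, was at 9.99, 10.40 and 10.22 with Ad-Cre and at 6.35, 6.62 and 6.08 with Ad-eGFP. RSAD2 had the largest difference among the listed effectors detected in both groups, 3.85 (SE 0.16, 14.5-fold, adjusted p = 4.82e-05). ISG15, a ubiquitin-like modifier, was at 9.92, 10.08 and 9.82 against 7.01, 6.95 and 6.86 and differed by 3.00 (SE 0.09, adjusted p = 1.45e-05). OASL1, a relative of the oligoadenylate synthetases, was detected on 0 of 3 Ad-eGFP arrays and was at least 6.24-fold higher, with measured means of 8.08 and 5.11 and an adjusted p of 9.24e-06. Between 8 and 10 of these effectors were called higher in each setting tried, and the stricter detection left 8 to test, with 8 called. The least firm calls, named after their values were seen, were IFIT2 (adjusted p = 0.0406) and BST2 (0.0409). IFIT2 lost its call in 8 of 14 alternatives and BST2 in 7 of 14, among them the replicate block (0.0757 and 0.0615).

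**Figure D2:**
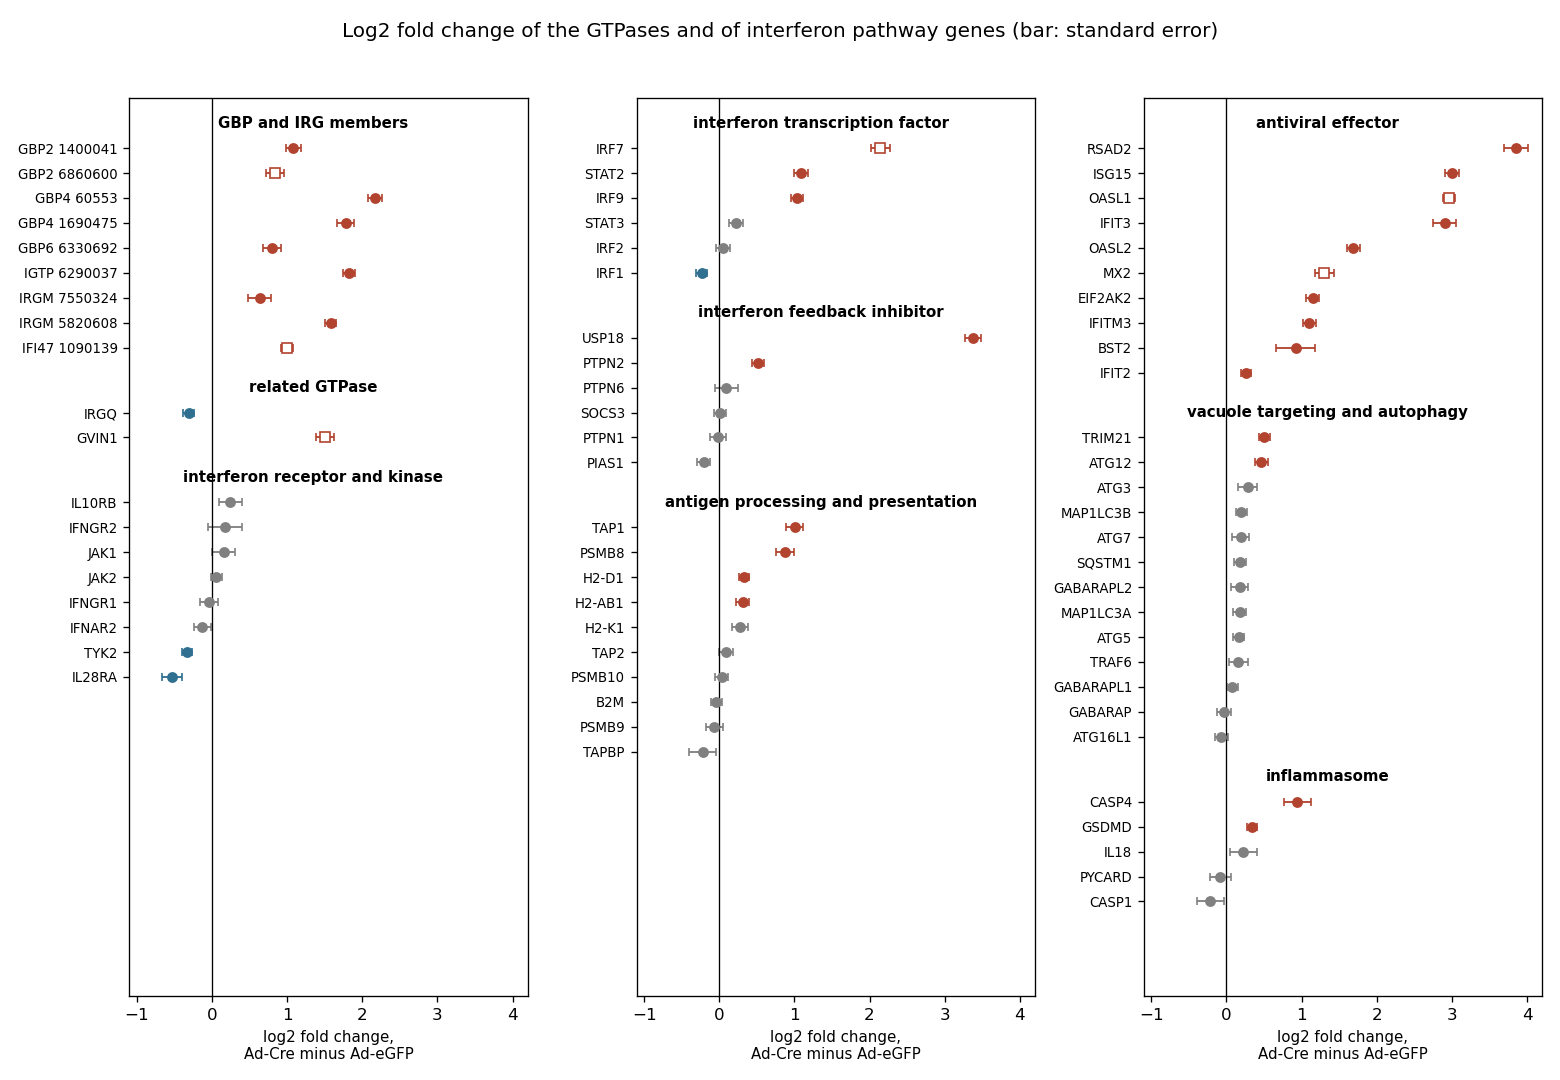
Log2 fold change of Ad-Cre over Ad-eGFP with its standard error for the 9 tested member probes and the tested genes of the interferon lists. Red marks genes called higher, blue genes called lower, grey genes not called and open squares fitted values of genes undetected on all 3 Ad-eGFP arrays, while RSAD2 at 3.85 and USP18 at 3.37 lie above the member genes, which range from 0.64 to 2.17.

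Among 12 antigen processing and presentation genes, 10 were tested, with 4 called higher, beside 10.7% of all tested probes, none lower and a median of 0.18. TAP1, a peptide transporter, rose by 1.01 (SE 0.11, adjusted p = 0.00161). PSMB8, an immunoproteasome subunit, rose by 0.88 (SE 0.12, adjusted p = 0.00333) on its brightest probe, and its other probe was not called, at 0.09. H2-D1, a class I heavy chain, rose by 0.33 (SE 0.07, adjusted p = 0.0155), a call lost without Ad-Cre 2 (0.0521) and without Ad-eGFP 2 (0.0634) or 3 (0.0714). H2-AB1, a class II chain named after its values were seen, was called at 0.31 (adjusted p = 0.0429) on its brightest probe. Its other 3 tested probes were not called, at -0.17 (adjusted p = 0.337), 0.03 (0.918) and -0.08 (0.648). The call of H2-AB1 was lost without Ad-Cre 1 (adjusted p = 0.108) or 3 (0.0692) and without Ad-eGFP 1 (0.118), 2 (0.106) or 3 (0.123). It was also lost with no filter (adjusted p = 0.0710), in the methods' t-test (0.0809), with the replicate block (0.0718) and with array weights (0.0563).

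Of 13 genes of vacuole targeting and autophagy, whose conjugation system helps to load GTPases onto vacuoles, 13 were tested, with 2 called higher, none lower and a median of 0.18. That count stands beside 10.7% of all tested probes called higher. On 7 of the 13 genes the lowest Ad-Cre value exceeded the highest Ad-eGFP value, beside 20.4% of all tested probes. TRIM21, a ubiquitin ligase and antibody receptor, rose by 0.51 (SE 0.07, adjusted p = 0.00392) on its brightest probe. Its other tested probes were not called, at 0.09 (adjusted p = 0.772) and 0.03 (adjusted p = 0.924). ATG12, part of the conjugation system of autophagy, rose by 0.46 (SE 0.08, adjusted p = 0.00941). Dimmer probes of 2 further genes, named after their values were seen, were called. TRAF6, a ubiquitin ligase, was at 0.41 on probe 5220482 (adjusted p = 0.00950), and at 0.13 with the larger offset, while its other tested probes were not called. GABARAPL2, an autophagy protein, was detected on 0 of 3 Ad-eGFP arrays by probe 6590669 and was at least 1.56-fold higher, with measured means of 6.07 and 5.16 and an adjusted p of 0.00179. That probe passed the filter only through the group where it was high, so it had to differ. Its fitted log2 difference of 0.91 was 0.16 with the larger offset. The brightest probe of GABARAPL2 was not called, at 0.18 (adjusted p = 0.303). With the larger offset, 5 genes of this list were called higher.

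Among 9 inflammasome genes, 5 were tested, with 2 called higher, beside 10.7% of all tested probes, 3 not called and a median of 0.22. With 5 genes that count says little about the list. CASP4, a caspase that senses bacterial lipopolysaccharide released with the help of GBP proteins, rose by 0.95 (SE 0.18, adjusted p = 0.0111), a call lost in the methods' t-test (0.0708). Another tested probe of CASP4 was not called, at 0.64 (adjusted p = 0.0618). GSDMD, the pore-forming protein cleaved by that caspase, rose by 0.34 (SE 0.07, adjusted p = 0.0144). The call of GSDMD was lost without Ad-Cre 2 (adjusted p = 0.0510) and without Ad-eGFP 2 (0.0566) or 3 (0.0670). Its other probes, named after their values were seen, were also called higher, 60390 at 0.47 (adjusted p = 0.00655), called in all 14 alternatives, and 1980102 at 0.48 (adjusted p = 0.0341). The call of probe 1980102 was lost without Ad-Cre 2 (0.0665), without Ad-eGFP 1 (0.0507), 2 (0.104) or 3 (0.0884), with no filter (0.0580) and in the methods' t-test (0.112).

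Beside the rise of the GTPases, 8 of 15 Sertoli cell markers were called lower with Ad-Cre, beside 12.2% of all tested probes. All 15 were tested, with 0 called higher, 7 not called and a median of -0.42. Their summed intensity was 155595, 149731 and 142779 on the Ad-Cre arrays and 192368, 191018 and 194912 on the Ad-eGFP arrays. SOX9, a factor of Sertoli cell identity, differed by -0.57 (SE 0.07, adjusted p = 0.00228) and WT1, a factor that maintains these cells, by -0.66 (SE 0.07, adjusted p = 0.00154). CLDN11, the tight junction protein and brightest marker, was not called, at 0.13 (adjusted p = 0.416). AMH, the anti-Müllerian hormone, was detected on 1 of 3 Ad-Cre and 3 of 3 Ad-eGFP arrays and differed by -1.16 (SE 0.20, adjusted p = 0.00829), a call lost in the methods' t-test (0.0620). Since AMH was not above background on the other Ad-Cre arrays, -1.16 is a fitted value and its size is not exact. The part of Sertoli cell state in the result on the GTPases was not tested.

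Macrophages, which respond strongly to interferon, were looked for through 15 markers. Of these, 11 were tested, with 1 called higher, 1 lower, 9 not called and a median of -0.04. Of all tested probes, 10.7% were called higher and 12.2% lower, so these counts are no result about macrophages. Their summed intensity was 7106, 6809 and 7052 with Ad-Cre and 8532, 8493 and 8504 with Ad-eGFP. The brightest of the list, read as LYZ2, the lysozyme of macrophages, and listed as LYZ, was called lower at -0.32 (SE 0.07, adjusted p = 0.0136). The symbol LYZ was placed under LYZ2 with the list, and which lysozyme gene this probe measured is not settled here. The call of LYZ2 was lost with median scaling (adjusted p = 0.0669) and without Ad-eGFP 1 (0.0503), 2 (0.0543) or 3 (0.0602). Under LYZS, an older symbol of LYZ2 whose probes were named after their values were seen, probe 830240 was called lower at -0.35 (adjusted p = 0.0276) and probe 1940608 was not called, at -0.31 (0.163). The call of LYZS was lost with median scaling (adjusted p = 0.0525), with a replicate block (0.0526), without Ad-Cre 2 (0.0795), without Ad-eGFP 1 (0.0807) or 3 (0.104) and in the methods' t-test (0.0579). CSF1R, the receptor for colony-stimulating factor, was named after its values were seen. It was detected on 3 of 3 Ad-Cre and 0 of 3 Ad-eGFP arrays and was at least 1.54-fold higher, with measured means of 6.06 and 5.10 and an adjusted p of 0.00204. CSF1R passed the filter only through the group where it was high, so it had to differ. Without LYZ2, which made up most of the sum, it was 1121, 959 and 1021 with Ad-Cre and 1114, 1019 and 1016 with Ad-eGFP, and the groups overlapped. PTPRC, ITGAM, FCGR1 and C1QA were detected on no array. CD68, CD14, MRC1, AIF1, C1QB, C1QC and TYROBP were detected on all 6 arrays, and none of these was called. The part of macrophages in the result on the GTPases was not tested.

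By their brightest probes, markers of the other cells of the testis were not called, but dimmer probes of 3 of these genes were. Of 10 lymphocyte markers, 2 were tested, with a median of -0.14. The brightest was CD3E, a chain of the T cell receptor complex, at 0.12 (adjusted p = 0.515). A dimmer CD3E probe, 6590239, was detected on 0 of 3 Ad-Cre and 3 of 3 Ad-eGFP arrays and was at least 1.12-fold lower, with measured means of 5.14 and 5.58 and an adjusted p of 0.0370. This probe passed the filter only through the group where it was high. That CD3E call was lost without Ad-Cre 1 (adjusted p = 0.0581) or 2 (0.0619) and without Ad-eGFP 1 (0.0655), 2 (0.104) or 3 (0.116). It was also lost without background correction (adjusted p = 0.0857), with the larger offset (0.256), with no filter (0.0629) and in the methods' t-test (0.112). With array weights, 1 lymphocyte marker was called lower. CD4, CD8A, CD79A and CD79B were detected on no array.

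Of 6 endothelial markers, 2 were tested, with a median of -0.07, and PECAM1, an adhesion protein, was at -0.18 (adjusted p = 0.321). Of 9 germ cell markers, 5 were tested, with a median of -0.03, and UCHL1, a marker of spermatogonia, was at -0.14 (adjusted p = 0.331). DAZL, a germ cell RNA-binding protein, had a dimmer probe, 5670066, called lower at -0.56 (adjusted p = 0.00726), at -0.16 with the larger offset, while its brightest probe was at -0.03 (adjusted p = 0.863). Of 7 Leydig cell markers, 2 were tested, with a median of -0.19. The probes of CYP11A1, the enzyme that starts steroid synthesis, went opposite ways. Its brightest probe was at -0.28 (adjusted p = 0.0923) and was called without Ad-Cre 1 (0.0258) and with array weights (0.0330). Its other tested probe, 4250735, was called higher at 0.53 (adjusted p = 0.0263), and at 0.23 with the larger offset. That call of CYP11A1 was lost without Ad-Cre 1 (adjusted p = 0.0734) or 2 (0.0833), without Ad-eGFP 1 (0.0620), 2 (0.0796) or 3 (0.0836), and in the methods' t-test (0.0972). Of 5 peritubular myoid markers, 4 were tested, with a median of 0.18. ACTA2, smooth muscle actin, was at 0.04 (adjusted p = 0.684) on its brightest probe, listed as 0610041G09RIK. Its tested probes under ACTA2, named after their values were seen, were not called. They were at 0.30 (adjusted p = 0.0975), 0.17 (0.397) and 0.16 (0.257). TAGLN, the actin-binding protein transgelin, was at 0.50 (adjusted p = 0.0523) and DES, the muscle filament protein desmin, at 0.32 (adjusted p = 0.0725), both named after their values were seen. Both were called higher without background correction (TAGLN 0.0109, DES 0.0269), with the larger offset (0.0231, 0.0329), with the stricter detection (0.0333, 0.0482), with array weights (0.00661, 0.0116) and without Ad-Cre 3 (0.00934, 0.0178). TAGLN was also called with median scaling (0.0365) and with a replicate block (0.0318). On 3 of the 4 tested myoid genes the lowest Ad-Cre value exceeded the highest Ad-eGFP value, beside 20.4% of all tested probes. The summed intensity of the myoid markers was 56770, 55364 and 55675 with Ad-Cre and 54316, 52984 and 54302 with Ad-eGFP. Without ACTA2 it was 3093, 2890 and 2333 with Ad-Cre and 2216, 2301 and 2202 with Ad-eGFP, and the groups overlapped in neither sum. The part of myoid cells in the result on the GTPases was not tested. The dimmer probes of CD3E, DAZL and CYP11A1 were named after their values were seen.

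The size of a change on a dim probe depended on the background correction, while its direction did not. With the larger offset, the log2 difference was 2.14 for RSAD2, 1.75 for ISG15 and 0.89 for OASL1. Among the transcription factors it was 0.43 for STAT2 and for IRF7. It was 0.29 for PTPN2, 0.25 for TAP1, 0.52 for PSMB8, 0.13 for H2-AB1, 0.42 for CASP4 and 0.25 for GVIN1. IL28RA was at -0.26, AMH at -0.25, CATNB at -0.13 and CSF1R at 0.16. Of the genes most like the members, FST was at 0.88, ISG20L1 at 0.29 and TOR3A at 0.54.

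Some members share a chromosome or promoter letters, which the choice of members did not use. RefSeq, on build GRCm38.p6, places GBP1, GBP2 and GBP3 on chromosome 3 and GBP6 on chromosome 5. It places IGTP, IIGP2, IRGM and IFI47 on chromosome 11, and IIGP1 on another chromosome. GBP4 is on chromosome 5 as today's Gbp4 and on chromosome 3 as a name of Gbp3. The 250 bases before the gene start were searched on both strands for TTCNNNGAA, the core of the gamma-activated sequence, and for GAAANNGAA, the first 9 bases of the core of the interferon-stimulated response element. Over 32851 promoters of RefSeq, 7.02% held TTCNNNGAA, 7.13% held GAAANNGAA and 0.752% held both. GBP3, GBP4, GBP6 and IIGP1 were not searched. GBP6 and today's Gbp4 had no promoter entry, while Gbp3, which also carries the name GBP4, had 2 and was left out. IGTP and IIGP2 each held 1 match of both motifs, with no base shared between the motifs. The windows of IGTP and IIGP2 have long runs of letters in common, also around the matches, so their matches are not independent of each other. IRGM held 2 overlapping matches of GAAANNGAA, and GBP2 held 1 on the minus strand. GBP1 held 1 match of GAAANNGAA, also on the minus strand, in a window that overlaps its own gene. IFI47 held neither motif, and a match is a description of letters, not of a site in use.

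The promoters shown, of IGTP, IIGP2, IRGM and GBP2, hold a match and belong to genes with a probe that rose, IIGP2 through AI481100, which was added after its values were seen. IFI47 also rose, and its promoter, which holds no match, is not shown. IGTP and IIGP2 hold matches of both motifs, and IRGM and GBP2 of GAAANNGAA alone. Each runs from 5′ to 3′ on the strand of its gene, with the matches in capitals, and all are from RefSeq on GRCm38.p6. IGTP is at chr11:58199306-58199555 on the plus strand, with TTCTAGGAA at positions -45 to -37 from the gene start and GAAACTGAA at -34 to -26. IIGP2 is at chr11:58214727-58214976 on the plus strand, with TTCCAGGAA at -75 to -67 and GAAACTGAA at -64 to -56. IRGM is at chr11:48871421-48871670 on the minus strand, with GAAATAGAA at -30 to -22 and GAAACCGAA at -24 to -16. GBP2 is at chr3:142620413-142620662 on the plus strand, with TTCACTTTC, the reverse complement of a match, at -58 to -50.
IGTP: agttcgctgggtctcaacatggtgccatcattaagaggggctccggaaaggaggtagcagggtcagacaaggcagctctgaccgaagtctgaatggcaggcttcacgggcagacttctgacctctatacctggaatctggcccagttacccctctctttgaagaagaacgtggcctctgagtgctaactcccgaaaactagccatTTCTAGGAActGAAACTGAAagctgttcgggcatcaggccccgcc
IIGP2: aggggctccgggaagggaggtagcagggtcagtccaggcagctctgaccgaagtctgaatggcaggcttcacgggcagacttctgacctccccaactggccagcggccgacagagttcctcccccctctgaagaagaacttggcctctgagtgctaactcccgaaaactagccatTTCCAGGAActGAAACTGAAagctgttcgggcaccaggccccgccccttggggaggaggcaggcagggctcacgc
IRGM: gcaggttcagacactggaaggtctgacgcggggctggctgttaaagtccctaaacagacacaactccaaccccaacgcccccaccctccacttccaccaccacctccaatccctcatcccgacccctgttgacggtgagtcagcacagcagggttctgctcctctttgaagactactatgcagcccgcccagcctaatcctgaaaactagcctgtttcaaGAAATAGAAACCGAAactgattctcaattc
GBP2: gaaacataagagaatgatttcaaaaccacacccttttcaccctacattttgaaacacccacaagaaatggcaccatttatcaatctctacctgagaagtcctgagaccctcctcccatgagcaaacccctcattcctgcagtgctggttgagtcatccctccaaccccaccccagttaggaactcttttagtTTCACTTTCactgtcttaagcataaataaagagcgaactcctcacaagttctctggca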

How the data were processed

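The authors deposited a raw intensity for each probe and array, not normalized or background-subtracted, with a detection p-value against negative-control beads that the authors deposited beside it. The software of the export is not given in the sources used here. The authors' comparison table, made in FlexArray (means and variances of log2 values, fold changes, t statistics and p-values), was not used, nor were 12 columns on bead counts and their SD. In R 4.3.3 with limma 3.58.1, neqc applied normexp background correction, an offset of 16, quantile normalization and log2. Probes detected (p under 0.05) on 3 or more of 6 arrays were tested with lmFit and eBayes, without covariates. P-values were adjusted by Benjamini-Hochberg over all tested probes and called under 0.05. A gene was read by its brightest tested probe.

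Alternatives were no background correction, a larger offset, median scaling, no filter, the methods' t-test (plain, Benjamini-Hochberg adjusted), detection at p under 0.01 on all 6 arrays, a replicate block, array weights, the mean of a gene's probes, and leaving out each array. The t-test was run without the EB (Wright and Simon) algorithm that the methods name beside it, so it is not the study's full procedure. The members and lists were chosen with earlier results of these data known. The lists were related GTPases, interferon ligands, receptors and kinases, transcription factors, feedback inhibitors, antigen processing and presentation, antiviral effectors, vacuole targeting and autophagy, inflammasome, and markers of Sertoli cells, macrophages, lymphocytes, endothelial, germ, Leydig and peritubular myoid cells. Of 161 list genes, 14 gained an older symbol from RefSeq, and 1 further listed gene was not used here. Named genes were all member probes, the EGFP and Ctnnb1 probes and tested related GTPases. For each other interferon list, they were the 3 called genes with the largest absolute change, plus IRF1, IRF9, IFNB1, IFNG, IFNAR1, IFNAR2, IFNGR1 and IFNGR2. Marker lists gave their brightest gene and any called gene among their 3 brightest, Sertoli cells SOX9, WT1, CLDN11 and AMH. The 5 genes most like the mean member profile were added.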

Additional observations from a re-analysis of the deposited data

How the results depend on the processing

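The count of tested probes called was 4774. It was 5760 without background correction, 5696 with a larger offset, 4143 with median scaling, 3825 with no filter and 4883 with the stricter filter. With array weights it was 7082. In the methods' t-test, run plain without their EB algorithm, it was 3220 (1622 at the methods' own thresholds). Leaving out 1 array gave 2483 to 5669. By more than 1.5 times it fell without Ad-Cre 2 (3019) and without Ad-eGFP 1 (2954), 2 (2820) or 3 (2483), each a fit with fewer arrays. With the replicate block, 4162 probes and 6 member genes were called.

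Member genes called higher numbered 6, among them IFI47, which passed the filter only through the group where it was high. The stricter filter dropped IFI47 and left 5 to test, with 5 called. The count was also 5 in the methods' t-test, and without Ad-Cre 2 or any Ad-eGFP array. Leaving out 1 array gave 5 to 6. The gene lost in the t-test and without those arrays was IRGM, with adjusted p from 0.0615 to 0.104. The median log2 difference of member genes, 1.04, was 0.816 without background correction and 0.766 with a larger offset. These settings compress dim probes by construction. It was 1.05 with median scaling and 0.993 to 1.11 with 1 array left out. No named member probe changed direction in any setting tried.

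Replicate numbers only share a number between groups. After removal of group means, arrays of the same number correlated at 0.157, 0.0554 and 0.0413, so a pairing is not shown. Each Ad-Cre array was closest to the Ad-eGFP array of its number, but Ad-Cre 3 correlated almost as well with Ad-eGFP 2 (0.0411).

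Limits are the 3 arrays a group, 4 members without a tested probe, dim probes near background, and probe symbols of the array's design, which are old. No array of Cre without the floxed allele was analysed here. Ad-Cre 3, which correlated least with its group, was not tested as standing apart.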
